A study of Mus musculus with 10 samples.

Results

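The 6 genes that encode the structural proteins of caveolae outside muscle, *Cav1*, *Cav2*, *Cavin1*, *Cavin2*, *Cavin3* and *Ehd2*, were followed in visceral white adipose tissue (WAT) of mice. They were chosen by name for the role of their products and make up 6 of the 47937 genes counted in each library. Each of the 6 passed the filter on low counts in every comparison, so no member was left out of a test.

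Caveolae are flask-shaped pits of the plasma membrane that are unusually dense in adipocytes and are also abundant in endothelial cells. Caveolins are inserted in the inner leaflet of the membrane and form the core of the coat, cavins bind to them from the cytosol to build the outer layer, and the ATPase EHD2 holds the neck of the pit at the cell surface. Loss of caveolin-1 or cavin-1 is known to remove caveolae and to cause a form of lipodystrophy.

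Expression was measured by mRNA-seq of visceral WAT from C57BL/6 mice in 10 libraries, made to compare heterozygous loss of *Mof*, a histone acetyltransferase gene listed as *Kat8*, and the response to a high-fat diet (HFD). On standard diet (SD), 3 libraries came from *Mof*+/+ mice and 3 from *Mof*+/- mice, all 8 weeks old. On HFD, 2 libraries came from *Mof*+/+ mice and 2 from *Mof*+/- mice, which by the sample descriptions were 27 weeks old after 20 weeks of the diet. Age differed with diet, so the effects of diet and of age cannot be told apart, and the study's text gives other ages and another length of feeding. The loss in *Mof*+/- mice was not confined to fat cells, and WAT as taken holds blood vessels, stroma and immune cells besides adipocytes. The labels describe the libraries of a group as biological replicates.

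Totals of counts on genes ranged from 1044355 to 17171947 per library, and the lowest belonged to the library labelled HFD *Mof*+/- replicate 1. In that library, 26.9% of counts came from mitochondrial genes, against 1.79% to 8.82% in the other 9, and 6.43% from a list of 11 skeletal muscle genes, against at most 0.159%. *Kat8* had 20.4 to 21.5 CPM (the count of a gene scaled to a total of 1e6 counts on genes) in SD *Mof*+/+, and 12.2, 18.8 and 11.5 CPM in SD *Mof*+/-. On HFD, *Kat8* had 18.15 and 19.2 CPM in *Mof*+/+, and 20.1 and 10.5 CPM in the libraries labelled *Mof*+/-. The first of these last values goes against its label, although it rests on 21 counts, with an exact 95% interval of 12.45 to 30.74 CPM. After TMM scaling, which adjusts library sizes for differences in composition, the library labelled SD *Mof*+/- replicate 2 (20.6 CPM of *Kat8*) also lay above the 3 SD *Mof*+/+ libraries (17.28 to 18.92 CPM), and *Kat8* did not pass the test between the genotypes on SD (log2 fold change -0.22, SE 0.35, edgeR adjusted p = 0.736) or on HFD (0.06, SE 0.82, adjusted p = 0.987). The difference of the genotypes in *Kat8* is thus not shown in these libraries. Headings inside the deposited tables exchange the genotypes of the third pair of SD libraries relative to the sample labels. In that pair *Kat8* went with the labels, at 20.4 CPM in the library labelled *Mof*+/+ and 11.5 CPM in the library labelled *Mof*+/-. *Xist* was found in the 3 SD *Mof*+/- libraries, at 46.1 to 139 CPM with the 4 Y-linked genes examined at 0, and in no other library, so that the third pair also went with its labels in these genes, whereas the methods name male mice. Genotype and sex therefore cannot be told apart on SD, nor diet and sex in *Mof*+/-. The comparison of the diets in *Mof*+/+ and that of the genotypes on HFD were made among libraries without *Xist*.

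*Cav1* and *Cav2* are neighbours on chromosome 6 (GRCm38), where *Cav2* spans chr6:17281185-17289115 and *Cav1* spans chr6:17306335-17341452, both on the plus strand and 17219 bases apart. *Ehd2* (chr7:15946958-15967567) and *Cavin3* (chr7:105480083-105482300) lie far apart on chromosome 7, *Cavin1* on chromosome 11 (chr11:100956733-100970887), all 3 on the minus strand, and *Cavin2* on chromosome 1 (chr1:51289126-51302960) on the plus strand. *Cavin3* shares 374 exonic bases with *Gm45667*, a transcript of the opposite strand that was not among the counted genes. The other 5 members share no exonic base with another gene. The library kit does not mark strand, so reads of *Cavin3* and of *Gm45667* cannot be told apart over those bases.

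The windows around the start sites of *Cav1*, *Cav2* and *Ehd2*, whose levels moved together over the libraries, are shown with that of *Cavin1*, whose levels did not follow them. They are RefSeq windows of GRCm38.p6 from 250 bases before to 50 bases after the start, written 5′ to 3′ on the strand of the gene, at chr6:17306085-17306384 (plus) for *Cav1*, chr6:17280935-17281234 (plus) for *Cav2*, chr7:15967486-15967785 (minus) for *Ehd2* and chr11:100970568-100970867 (minus) for *Cavin1*. Capitals mark GC boxes, GGGCGG or its reverse complement CCGCCC, the motif that the Sp1 factor is known to bind.
Cav1: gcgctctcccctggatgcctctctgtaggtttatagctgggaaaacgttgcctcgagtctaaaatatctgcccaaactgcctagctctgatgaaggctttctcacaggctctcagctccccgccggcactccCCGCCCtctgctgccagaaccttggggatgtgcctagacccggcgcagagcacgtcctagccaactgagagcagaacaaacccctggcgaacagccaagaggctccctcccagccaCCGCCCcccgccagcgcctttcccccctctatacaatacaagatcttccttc
Cav2: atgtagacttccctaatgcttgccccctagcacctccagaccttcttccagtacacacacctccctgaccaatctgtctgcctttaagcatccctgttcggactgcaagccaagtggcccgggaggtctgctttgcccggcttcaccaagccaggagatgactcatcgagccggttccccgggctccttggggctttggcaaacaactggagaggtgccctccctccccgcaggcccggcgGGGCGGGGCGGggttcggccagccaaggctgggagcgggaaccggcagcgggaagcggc
Ehd2: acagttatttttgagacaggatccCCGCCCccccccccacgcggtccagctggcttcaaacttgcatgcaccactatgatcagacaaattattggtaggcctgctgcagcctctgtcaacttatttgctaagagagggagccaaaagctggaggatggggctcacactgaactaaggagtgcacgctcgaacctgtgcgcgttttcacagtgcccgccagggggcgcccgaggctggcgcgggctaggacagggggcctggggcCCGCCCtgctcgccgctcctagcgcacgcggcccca
Cavin1: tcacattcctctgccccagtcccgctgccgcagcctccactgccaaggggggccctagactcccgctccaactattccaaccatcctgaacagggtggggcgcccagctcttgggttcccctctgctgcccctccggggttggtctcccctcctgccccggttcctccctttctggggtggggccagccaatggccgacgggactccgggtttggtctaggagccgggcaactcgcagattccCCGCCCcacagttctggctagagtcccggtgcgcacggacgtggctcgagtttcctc
The window of *Cav1* held 2 GC boxes, that of *Cav2* held 2 that overlap by 1 base, that of *Ehd2* held 2 and that of *Cavin1* held 1. The *Cavin2* window (chr1:51288876-51289175, plus) held 0, and RefSeq windows were matched for 5 of the 6 members, not for *Cavin3*. Over all 32851 windows of the same length, 35.7% held a GC box. A CCAAT box (CCAAT or ATTGG) was found in the windows of *Cav2*, *Cavin1*, *Cavin2* and *Ehd2*, against 37.4% of all windows, and a TATA box (TATAAA or TTTATA) in that of *Cav1*, against 13.6%. Matches were counted at any position, and that of *Cav1* was TTTATA near the 5′ end of the window, far from the start. The GC content was 59.3% for *Cav1*, 64.3% for *Cav2*, 66.7% for *Cavin1* and 62.0% for *Ehd2*, above the median of 52.7% over all windows, and 43.3% for *Cavin2*, below it. These letters are a description of the windows and not of binding.

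To compare genes with one another, levels were divided by exonic length and are given as CPM per kb. In the SD *Mof*+/+ libraries, *Cav1* had the highest level of the 6, with 730.1 ± 168 CPM per kb (SD, n = 3), which ranked it 40th of 15857 genes. *Cavin1* followed with 329.7 ± 20.65, then *Ehd2* with 238 ± 64.0, *Cav2* with 206 ± 58.9, *Cavin2* with 185 ± 53.65 and *Cavin3* with 176.5 ± 34.75 CPM per kb. The intervals of mean ± SD of *Cav1* and *Cavin1* did not overlap with each other or with the rest, whereas those of *Ehd2*, *Cav2*, *Cavin2* and *Cavin3* overlapped.

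In each of the other 3 groups, *Cavin1* was above *Cav1* and *Cavin3* came next, followed by *Cavin2*, *Ehd2* and *Cav2*. In SD *Mof*+/-, *Cavin1* had 706 ± 239.5 CPM per kb and *Cav1* 500.5 ± 165 (SD, n = 3), and *Cavin3* had 322 ± 69.6. In HFD *Mof*+/+, *Cavin1* had 549 ± 41.1, *Cav1* 439.5 ± 134.8 and *Cavin3* 276 ± 42.2 CPM per kb (SD, n = 2). In HFD *Mof*+/-, they had 504.5 ± 264, 346.5 ± 177 and 257 ± 200.4 CPM per kb (SD, n = 2). In these 3 groups the intervals of mean ± SD overlapped between *Cavin1* and *Cav1* and between *Cav1* and *Cavin3*, whereas in SD *Mof*+/+ the interval of *Cav1* lay above that of *Cavin1*. Together the 6 genes took 0.504% to 0.765% of counts in the SD libraries, 0.47% and 0.622% in HFD *Mof*+/+, and 0.299% and 0.666% in HFD *Mof*+/-.

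The caveolins and *Ehd2* shared a profile over the libraries, highest in SD *Mof*+/+ replicate 2 and lowest in the library labelled HFD *Mof*+/- replicate 1. *Cav1*, the main caveolin of fat, had 2552, 3074 and 1918 CPM in SD *Mof*+/+, 2082, 2022 and 1068 CPM in SD *Mof*+/-, 1842 and 1186 CPM in HFD *Mof*+/+, and 762.2 and 1625 CPM in HFD *Mof*+/-. *Cav2*, which forms oligomers with caveolin-1, had 670.1, 891.5 and 499.9 CPM in SD *Mof*+/+, 510.5, 564.5 and 503.4 CPM in SD *Mof*+/-, 474.3 and 313.8 CPM in HFD *Mof*+/+, and 197.3 and 388.5 CPM in HFD *Mof*+/-. *Ehd2* had 1229, 1542 and 886.5 CPM in SD *Mof*+/+, 856.6, 884 and 761.4 CPM in SD *Mof*+/-, 807 and 547.8 CPM in HFD *Mof*+/+, and 372.5 and 961.9 CPM in HFD *Mof*+/-. On this scale *Cav1* and *Cav2* overlapped between the genotypes on SD, whereas the highest *Ehd2* value in *Mof*+/- (884 CPM) lay just below the lowest in *Mof*+/+ (886.5 CPM), and for all 3 genes both HFD *Mof*+/+ libraries were below the 3 SD *Mof*+/+ libraries. The 2 HFD libraries of each genotype were far apart from each other.

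The cavins divided. *Cavin1*, which is needed for the coat to assemble, had 1224, 1227 and 1097 CPM in SD *Mof*+/+, 1796, 2325 and 3476 CPM in SD *Mof*+/-, 2074 and 1866 CPM in HFD *Mof*+/+, and 1139 and 2480 CPM in HFD *Mof*+/-. *Cavin3*, which binds cavin-1, had 297.7, 348.7 and 233.5 CPM in SD *Mof*+/+, 482.5, 455.2 and 667.7 CPM in SD *Mof*+/-, 508.1 and 408.9 CPM in HFD *Mof*+/+, and 191.5 and 662.5 CPM in HFD *Mof*+/-. Both were low in all 3 SD *Mof*+/+ libraries and high in all 3 SD *Mof*+/- libraries, with SD *Mof*+/- replicate 3 highest of the 10. *Cavin2*, which helps to bend the membrane, had 730.5, 564.6 and 402.7 CPM in SD *Mof*+/+, 672.7, 661 and 612.2 CPM in SD *Mof*+/-, 514.9 and 377.6 CPM in HFD *Mof*+/+, and 328.4 and 543.9 CPM in HFD *Mof*+/-, with no library apart from the others.

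**Figure D1:**
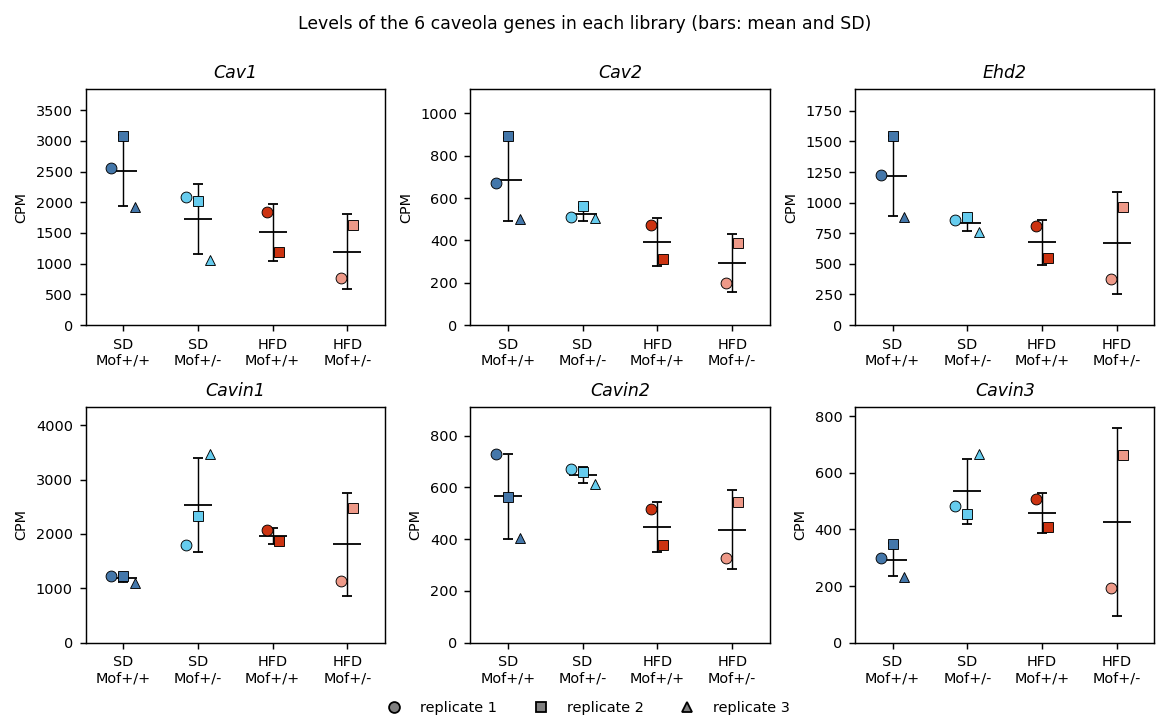
Level of each of the 6 caveola genes (y axis, CPM, from 0) in the 10 libraries, by diet and *Mof* genotype (x axis), where symbols are libraries and black bars the mean and SD (n = 3 on SD, n = 2 on HFD). *Cavin1* and *Cavin3* are lower in all 3 SD *Mof*+/+ libraries than in all 3 SD *Mof*+/- libraries, whereas *Cav1* and *Cav2* overlap between these groups and *Ehd2* nearly touches (884 against 886.5 CPM).

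The likeness of profiles was measured by the root mean square difference of centred log2 levels over the 10 libraries, among 15896 genes, where a smaller value means a closer profile. *Ehd2* was the 3rd nearest of all genes to *Cav2* (0.184), and *Cav2* the 2nd nearest to *Ehd2*. *Ehd2* was the 11th nearest to *Cav1* (0.223) and *Cav2* the 53rd (0.266). *Cavin3* was the 34th nearest to *Cavin1* (0.233) and *Cavin1* the 13th nearest to *Cavin3*. These close ranks held within the caveolin and *Ehd2* group and within the *Cavin1* and *Cavin3* pair, but not between them, since *Cavin1* was only the 5410th nearest to *Cav1* (0.875). *Cavin2* lay between, at 0.375 to 0.442 from the caveolins and *Ehd2* and at 0.486 and 0.525 from *Cavin3* and *Cavin1*.

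The genes nearest to each member over all libraries were mostly not caveola genes. For *Cav1* they were *Slc24a3* (0.166), *Mocs1* (0.18) and *Aco1* (0.189), for *Cav2* they were *Tspan12* (0.163) and *Tob1* (0.18) ahead of *Ehd2*, and for *Ehd2* they were *Cdip1* (0.147), *Cav2* and *Tob1* (0.186). For *Cavin1* they were *Bcap31* (0.121), *Ifi27* (0.144) and *Mrps9* (0.188), and for *Cavin3* they were *Ifi27* (0.19), *Mrpl51* (0.191) and *Gsto1* (0.198). *Ifi27* was among the 3 nearest to both *Cavin1* and *Cavin3*, and *Tob1* among those of both *Cav2* and *Ehd2*. For *Cavin2* they were *Lgals9* (0.174), *Zwint* (0.194) and *Abcf3* (0.211). All profiles share the same 10 libraries with their depth and tissue make-up, and these distances are a description without a test.

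**Figure D2:**
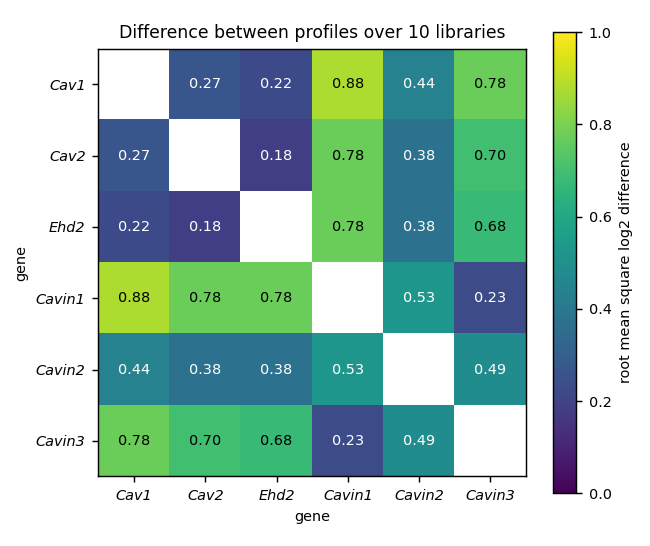
Root mean square difference between the centred log2 profiles of each pair of caveola genes over the 10 libraries (both axes are genes, the colour scale runs from 0 to 1 in log2 units). *Cav1*, *Cav2* and *Ehd2* lie within 0.27 of each other, *Cavin1* and *Cavin3* lie 0.23 apart, and the pairs between these sets lie at 0.68 to 0.88.

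Ratios of counts within a library do not depend on the scaling between libraries. The ratio of *Cav2* to *Cav1* lay between 0.239 and 0.29 in 9 libraries and was 0.471 in SD *Mof*+/- replicate 3. In that library *Ehd2* also stood higher against *Cav1*, at 0.713, against 0.412 to 0.592 in the other 9. *Cavin3* kept a ratio of 0.168 to 0.284 to *Cavin1* in all 10. In contrast, the ratio of *Cavin1* to *Cav1* was 0.48, 0.399 and 0.572 in SD *Mof*+/+ and 0.863, 1.15 and 3.26 in SD *Mof*+/-, and on HFD it was 1.13 and 1.57 in *Mof*+/+ and 1.49 and 1.53 in *Mof*+/-. The 3 SD *Mof*+/+ libraries thus had the lowest ratios of the 10, and the 2 HFD *Mof*+/- libraries, which differed in the level of every member, had nearly the same ratio.

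On the log2 scale, the ratio of *Cavin1* to *Cav1* was 0.56 ± 1.01 in SD *Mof*+/- and -1.06 ± 0.26 in SD *Mof*+/+ (SD, n = 3 each), a difference of 1.63 (exact permutation test, two-sided, p = 0.1, which 3 against 3 cannot go below, and 0.4 after Benjamini-Hochberg adjustment over 10 ratio tests). In *Mof*+/+ it was 1.48 higher on HFD than on SD (exact permutation test, p = 0.2, which 2 against 3 cannot go below, adjusted 0.4). The groups did not overlap in either comparison, but neither design could reach 0.05. Grouped by the table headings, the difference on SD turned in direction. The ratio of *Cavin2* to *Cavin1* was 0.597, 0.46 and 0.367 in SD *Mof*+/+ and 0.375, 0.284 and 0.176 in SD *Mof*+/-, which overlapped, and 0.248 and 0.202 in HFD *Mof*+/+, below all SD *Mof*+/+ libraries (log2 difference -1.05, exact permutation test, p = 0.2, adjusted 0.4). The other 3 ratios differed by at most 0.23 on the log2 scale in these comparisons (exact permutation test, p from 0.2 to 1).

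**Figure D3:**
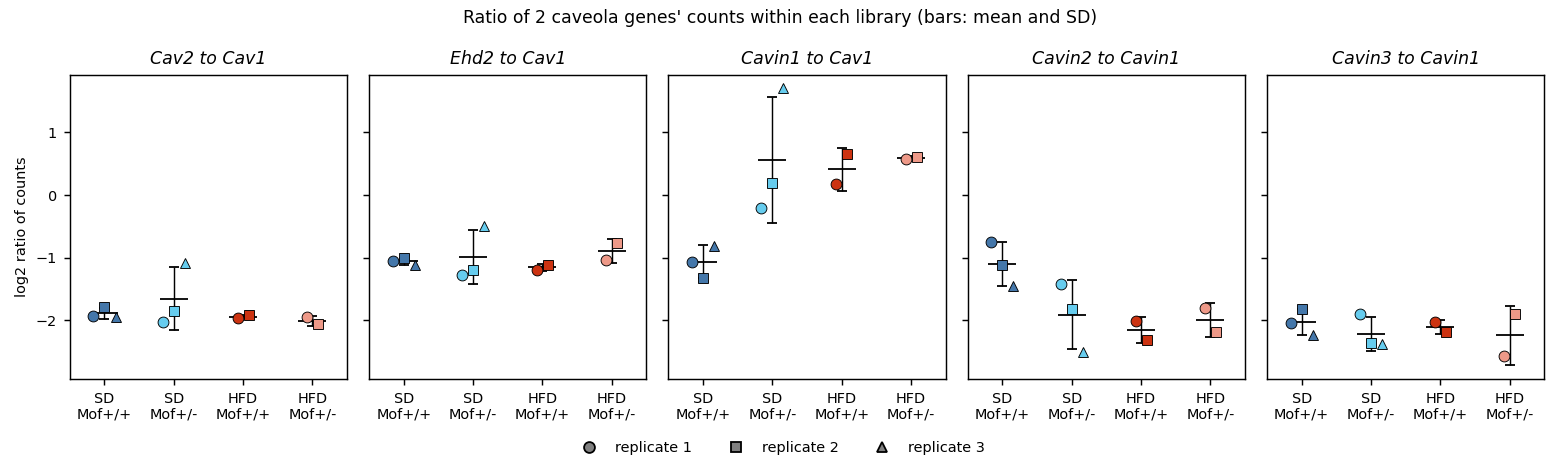
Ratio of the counts of 2 caveola genes within each library (y axis, log2), by diet and *Mof* genotype (x axis), with symbols for libraries and black bars for the mean and SD. *Cavin1* to *Cav1* is below 0 in the 3 SD *Mof*+/+ libraries and in SD *Mof*+/- replicate 1, and above 0 in the other 6. *Cav2* to *Cav1* lies from -2.064 to -1.786 apart from SD *Mof*+/- replicate 3 (-1.085), and *Cavin3* to *Cavin1* lies from -2.573 to -1.816.

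The comparison of the genotypes on SD asked which members differed between libraries labelled *Mof*+/- and *Mof*+/+, where genotype and sex cannot be told apart. *Cavin1* and *Cavin3* were higher in *Mof*+/-, 2.79-fold for *Cavin1* (log2 fold change 1.48, SE 0.32, edgeR quasi-likelihood test with Benjamini-Hochberg adjustment over all genes, adjusted p = 0.0429) and 2.36-fold for *Cavin3* (1.24, SE 0.29, adjusted p = 0.0486). The calls were thus 2 of 6 members, against 5.24% of all 13864 genes tested and 3.33% called higher. *Cavin2* had a log2 fold change of 0.55 (SE 0.28, adjusted p = 0.249). *Cav1* (-0.21, SE 0.32, adjusted p = 0.721), *Cav2* (-0.03, SE 0.28, adjusted p = 0.957) and *Ehd2* (-0.19, SE 0.27, adjusted p = 0.696) were not called. After TMM scaling, the genotypes did not overlap in *Cavin1*, *Cavin2* and *Cavin3*, all higher in *Mof*+/-, against 35.4% of all genes in either direction and 18.0% in this one. In CPM, 3 members did not overlap, *Cavin1* and *Cavin3* higher and *Ehd2* lower in *Mof*+/-, against 40.3% of all genes. The median log2 fold change was 0.26 over the 6 members and -0.07 over all genes.

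Both calls lie near the threshold and were lost when single libraries were left out. Without SD *Mof*+/+ replicate 1, 2 or 3, or without SD *Mof*+/- replicate 2, whose *Kat8* went against its label after TMM scaling but not in CPM, neither gene was called, with adjusted p of 0.115 to 0.171 for *Cavin1* and 0.114 to 0.175 for *Cavin3* in edgeR, although the log2 fold changes stayed at 1.41 to 1.58 and 1.08 to 1.39. Without SD *Mof*+/- replicate 3, the library of highest *Cavin1*, the log2 fold change of *Cavin1* was 1.12 and still called (adjusted p = 0.0378), and that of *Cavin3* was 0.99 and not called (adjusted p = 0.0591). A correction for transcript length ended the call of *Cavin3* (0.95, adjusted p = 0.055) and raised *Cavin1* to 1.83 (adjusted p = 0.0214). Neither gene was called with the replicate number as a block or with all 10 libraries in a single fit. Grouped by the table headings in place of the labels, *Cavin1* and *Cavin3* had -0.23 and -0.18, and neither was called (adjusted p = 1 for both).

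Markers of other cell types moved in the same comparison. The summed level of 13 endothelial genes was 1798 to 4098 CPM in SD *Mof*+/+ and 496.5 to 590.1 CPM in SD *Mof*+/-, with 13 of 13 lower and 8 called. That of 7 adipocyte genes was 19930 to 27050 and 28630 to 35750 CPM, with 6 of 7 higher and 2 called. *Cfd*, which encodes the secreted protease adipsin, made up 42.5% to 53.9% of that sum, and without it the sum was 10030 to 14640 and 16110 to 19230 CPM. That of 6 mesothelial genes was 23.76 to 59.11 and 169.8 to 349.1 CPM, with 6 of 6 higher and 4 called, and *Lrrn4* or *Upk1b* was at 0 in 2 of the *Mof*+/+ libraries. Of 8 genes of smooth muscle and pericytes, 4 were higher and 4 lower, with 3 called lower and 0 higher by edgeR, 4 in each direction at an unadjusted p under 0.05, and 3 in each direction by DESeq2, and their sum was 824.7 to 1316 CPM in *Mof*+/+ and 404.5, 3042 and 6123 CPM in *Mof*+/-. Replicate 3, the *Mof*+/- library of highest *Cavin1* and *Cavin3*, was thus also highest in this sum. The order of the 3 *Mof*+/- libraries in it was that of *Cavin1* but not that of *Cavin3*. Replicate 1 of *Mof*+/- lay below the *Mof*+/+ libraries in this sum and above them in *Cavin1* (1796 against at most 1227 CPM). Of 7 fibroblast genes, 7 were higher and 2 called, and of 6 macrophage genes, 4 were higher and 0 called by edgeR or DESeq2 (1 at an unadjusted p under 0.05). DESeq2 called 9 endothelial genes lower, and 3 adipocyte, 6 mesothelial and 2 fibroblast genes higher. The part of these cell types in the levels of the members was not tested, and in bulk tissue fewer cells of a type and less RNA per cell cannot be told apart. Beside log2 fold changes of -0.21, -0.03 and -0.19 for *Cav1*, *Cav2* and *Ehd2*, the median of the endothelial list was -1.85.

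**Figure D4:**
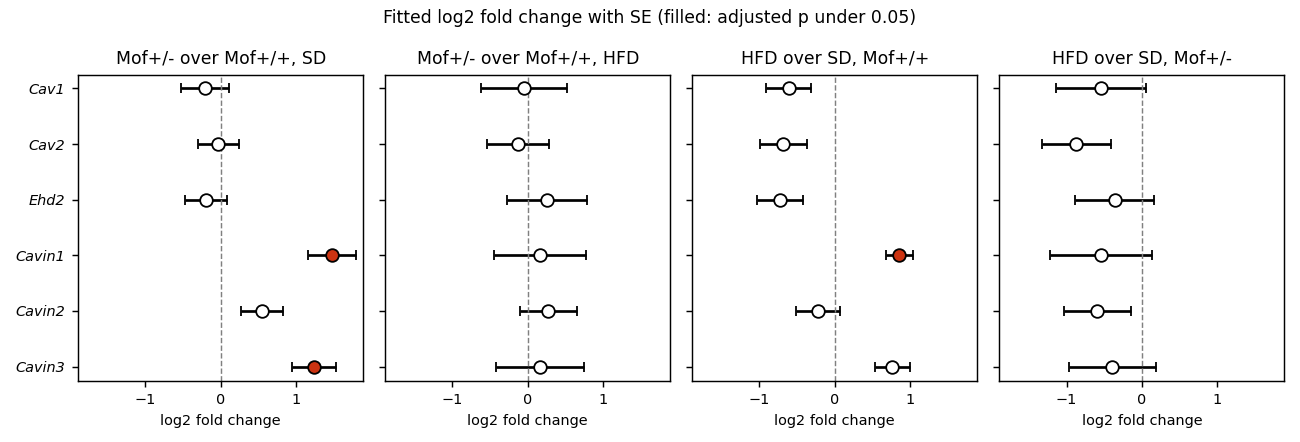
Fitted log2 fold change of each caveola gene (x axis) with its SE in the 4 comparisons between groups, with filled symbols for an adjusted p under 0.05 in edgeR. *Cavin1* (1.48) and *Cavin3* (1.24) are called between the genotypes on SD and *Cavin1* (0.86) between the diets in *Mof*+/+, and the values between the genotypes on HFD lie from -0.13 to 0.27.

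Between the genotypes on HFD, no member stood apart. The log2 fold changes in *Mof*+/- over *Mof*+/+ were -0.05 for *Cav1* (SE 0.57), -0.13 for *Cav2* (SE 0.42), 0.17 for *Cavin1* (SE 0.61), 0.27 for *Cavin2* (SE 0.38), 0.17 for *Cavin3* (SE 0.58) and 0.26 for *Ehd2* (SE 0.53), with edgeR adjusted p of 0.869 to 0.985. The calls were 0 of 6 members, with 0 at an unadjusted p under 0.05 and 0 by DESeq2, against 0% of all 14120 genes after adjustment (209 genes by DESeq2) and 12.3% before it. The ranges of the genotypes overlapped in all 6 members, whereas they did not overlap in 51.0% of all genes. The median was 0.17 over the members and -0.24 over all genes.

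The libraries of each HFD group differed among themselves. Of the 2 libraries labelled HFD *Mof*+/-, replicate 2 was above replicate 1 in all 6 members, from 1.66-fold in *Cavin2* to 3.46-fold in *Cavin3* on the CPM scale. Without replicate 2, the log2 fold changes were -0.45 for *Cavin1*, -0.92 for *Cavin3* and -0.52 for *Ehd2*, and without replicate 1, the shallow library with the muscle counts, they were 0.52, 0.72 and 0.70. Both fits assumed the lone library to vary like the others, and no member was called in either (edgeR adjusted p of 0.164 to 0.908). The sum of the skeletal muscle list was 64330 CPM in replicate 1 and 1594 CPM in replicate 2, against 29.47 and 31.39 CPM in HFD *Mof*+/+, with 11 of 11 genes higher, 0 called by edgeR, and 11 at an unadjusted p under 0.05 and by DESeq2. The adipocyte list gave 4413 and 18220 CPM in HFD *Mof*+/-. Replicate 2 was also above replicate 1 in the sums of the fibroblast list (1064 and 2880 CPM), the flotillins (100.5 and 307.9 CPM) and the genes resident in caveolae (1823 and 4347 CPM), so that this order was not particular to the members. It was not that of every list, since the sums in replicates 1 and 2 were 932.6 and 909.5 CPM for the accessory genes of caveolae, 770.8 and 552.6 CPM for smooth muscle and pericytes, and 141.7 and 0.904 CPM for mesothelium. The 6 macrophage genes were all lower in HFD *Mof*+/-, at 1103 and 1952 CPM in sum, with 0 called, 3 at an unadjusted p under 0.05 and 1 by DESeq2, and the endothelial sum was 773.7 and 800.1 CPM. The part of these cell types in the levels of the members was not tested.

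Between the diets in *Mof*+/+, *Cavin1* was 1.81-fold higher on HFD (log2 fold change 0.86, SE 0.19, edgeR adjusted p = 0.0354). It was the only call of the 6 members, against 9.75% of all 14939 genes and 6.02% called higher. *Cavin3* had a log2 fold change of 0.77 (SE 0.23, adjusted p = 0.0825), and DESeq2 called it (adjusted p = 0.0145). The values of *Cav1* (-0.61, SE 0.30, adjusted p = 0.226), *Cav2* (-0.68, SE 0.31, adjusted p = 0.203), *Ehd2* (-0.73, SE 0.30, adjusted p = 0.17) and *Cavin2* (-0.22, SE 0.29, adjusted p = 0.668) were below 0 and did not pass the test. After TMM scaling, the diets did not overlap in *Cavin1* and *Cavin3*, both higher on HFD, against 49.2% of all genes in either direction and 25.1% in this one. In CPM, 5 members did not overlap, against 49.1% of all genes, with *Cav1*, *Cav2* and *Ehd2* lower on HFD, against 28.2% in that direction. The median was -0.42 over the members and -0.04 over all genes.

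The call of *Cavin1* was kept in edgeR without SD *Mof*+/+ replicate 3 (0.79, adjusted p = 0.0496) and was lost without SD *Mof*+/+ replicate 1 (0.89, adjusted p = 0.106) or replicate 2 (0.90, adjusted p = 0.0597). It was also lost without HFD *Mof*+/+ replicate 1 (0.76, adjusted p = 0.978) or replicate 2 (0.90, adjusted p = 1), where the single library left in the group was assumed to vary like the rest. The call was also lost with the replicate number as a block and with all 10 libraries in a single fit. Grouped by the table headings, *Cavin1* had -0.16 (adjusted p = 0.99). This comparison shares its SD *Mof*+/+ libraries with that of the genotypes on SD, so that the 2 calls of *Cavin1* are not independent of each other.

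Among the markers, the endothelial sum was 787.9 and 922.5 CPM in HFD *Mof*+/+, below the 3 SD *Mof*+/+ libraries, with 13 of 13 genes lower and 4 called (12 by DESeq2). The adipocyte sum was 8438 and 10600 CPM, with 6 of 7 lower and 1 called, *Cfd*, which had 9901 to 12410 CPM on SD and 532.9 and 623.8 CPM on HFD (log2 fold change -4.20, edgeR adjusted p = 0.00178). Without *Cfd* the adipocyte sum was 7905 and 9978 CPM on HFD against 10030 to 14640 CPM on SD, with 5 of 6 lower, 0 called by edgeR and 5 at an unadjusted p under 0.05, 1 of which, *Cidec*, was higher on HFD (log2 fold change 0.65, adjusted p = 0.152). DESeq2 called 5 of the 7 lower and 1 higher. The sum of 6 macrophage genes was 3957 and 5033 CPM against 834.3 to 1519 CPM on SD, with 6 of 6 higher and 4 called (5 by DESeq2). The genes of smooth muscle and pericytes were lower in 8 of 8, with 3 called (5 by DESeq2), those of fibroblasts in 5 of 7 and those of mesothelium in 2 of 6, with 0 called in either by edgeR (1 and 0 at an unadjusted p under 0.05, and 1 and 0 by DESeq2). The part of these cell types in the levels of the members was not tested.

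**Figure D5:**
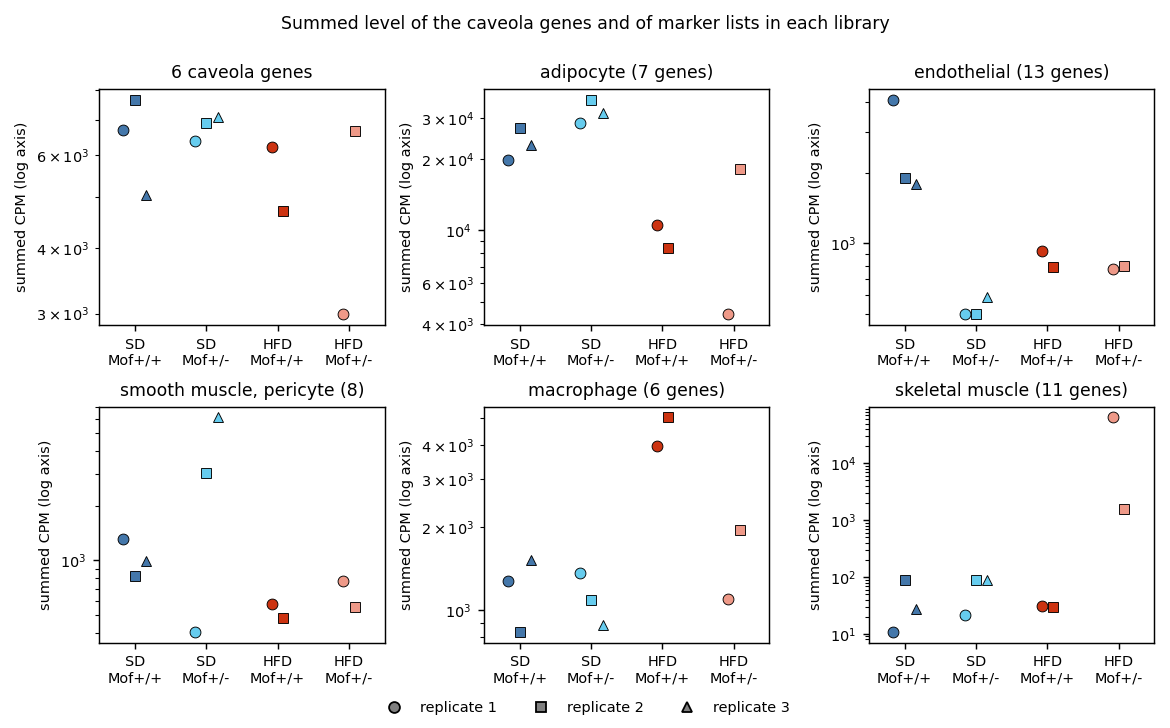
Summed CPM (y axis, log scale) of the 6 caveola genes and of lists of marker genes in each library, by diet and *Mof* genotype (x axis), with symbols for libraries. The endothelial sum is highest in the 3 SD *Mof*+/+ libraries (1798 to 4098 CPM), the adipocyte sum is lower in the HFD libraries than in the SD libraries with *Cfd* in it, and the skeletal muscle sum reaches 64330 CPM in HFD *Mof*+/- replicate 1.

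Between the diets in *Mof*+/-, all 6 members had log2 fold changes below 0 on HFD, and none passed the test. The values were -0.54 for *Cav1* (SE 0.60), -0.87 for *Cav2* (SE 0.46), -0.54 for *Cavin1* (SE 0.68), -0.59 for *Cavin2* (SE 0.45), -0.39 for *Cavin3* (SE 0.58) and -0.36 for *Ehd2* (SE 0.53), with edgeR adjusted p of 0.652 to 0.905. Thus 0 of 6 members were called, with 0 at an unadjusted p under 0.05 and 0 by DESeq2, against 0% of all 13610 genes after adjustment (399 genes by DESeq2) and 8.57% before it. After TMM scaling, the diets did not overlap in *Cav2* and *Cavin2*, both lower on HFD, against 29.6% of all genes in either direction and 20.3% in this one. With the library labelled HFD *Mof*+/- replicate 1 as the only HFD library, *Cav2* (-1.33, adjusted p = 0.0491) and *Cavin3* (-1.40, adjusted p = 0.0354) were called. That fit took its spread from the other groups and rests on the shallow library with 6.43% skeletal muscle counts and *Kat8* against its label, so these values describe that library. With replicate 2 as the only HFD library none was called, and *Cavin3* (0.24) and *Ehd2* (0.15) were above 0. The adipocyte sum was 28630 to 35750 CPM on SD and 4413 and 18220 CPM on HFD in *Mof*+/-, with 7 of 7 genes lower, 0 called by edgeR, 1 at an unadjusted p under 0.05 and 1 by DESeq2. Without *Cfd*, which had 12180 to 16520 CPM on SD and 578.3 and 1842 CPM on HFD, the sum was 16110 to 19230 CPM on SD and 3835 and 16380 CPM on HFD, so that the diets overlapped. Other lists moved as well, with 0 called by edgeR in each. Fibroblast genes were lower in 7 of 7 (median -2.10, 4 at an unadjusted p under 0.05 and 3 by DESeq2) and mesothelial genes in 6 of 6 (median -2.36, 1 and 1). Skeletal muscle genes were higher in 11 of 11 (11 and 11) and endothelial genes in 11 of 13 (median 0.48, 3 and 0). Genes of smooth muscle and pericytes were higher in 4 and lower in 4 (3 and 4 of these at an unadjusted p under 0.05, and 1 and 2 by DESeq2), and macrophage genes higher in 3 and lower in 3 (1 and 0). The part of these cell types in the levels of the members was not tested.

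The interaction, the difference between the genotypes' responses to the diet, was tested over all 10 libraries. Only the SD *Mof*+/- libraries held *Xist*, so the interaction cannot be told apart from an effect of sex. *Cavin1* had the interaction of largest size among the members, with a log2 value of -1.40 (SE 0.59, unadjusted p = 0.0358, edgeR adjusted p = 0.367), with a difference between the genotypes of 1.48 on SD and 0.17 on HFD. *Cavin3* had -1.16 (SE 0.62, adjusted p = 0.485). The other 4 members had values from -0.37 to 0.36, with adjusted p of 0.797 to 1. The calls were 0 of 6 members, with 1 at an unadjusted p under 0.05 and 0 by DESeq2, against 0.0881% of all 15897 genes after adjustment (14 genes, and 483 by DESeq2) and 12.4% before it. Without HFD *Mof*+/- replicate 2, *Cavin1* (-1.93, adjusted p = 0.0357) and *Cavin3* (-2.17, adjusted p = 0.0164) were called, in a fit that rests on the same single library and takes its spread from the other groups.

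Of 12 genes for accessory proteins of caveolae, such as the membrane-bending pacsins and other EHD proteins, 9 were tested between the genotypes on SD and 0 were called by edgeR or DESeq2, with 2 lower at an unadjusted p under 0.05. Between the diets in *Mof*+/+, 1 of 10 tested was called, near the 9.75% of all genes, and this was *Pacsin3*, which was lower on HFD (-2.06, SE 0.29, adjusted p = 0.0109). DESeq2 called 1 lower and 1 higher. In the remaining fits edgeR called 0 of the accessory genes, with 4 at an unadjusted p under 0.05 for genotype on HFD, 5 for diet in *Mof*+/- and 4 for the interaction, and DESeq2 called 1 in each. *Pacsin2*, the pacsin of non-muscle caveolae, had log2 fold changes of -0.29 between the genotypes on SD and 0.01 between the diets in *Mof*+/+ (edgeR adjusted p = 0.63 and 0.988). Its profile over the libraries did not move with *Cavin1*, since SD *Mof*+/- replicate 3 had 29.9 CPM of *Pacsin2* and the other 9 had 62.55 to 101.6 CPM.

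Of 14 genes whose products are known to reside in or signal from caveolae, 10 were lower and 4 higher in SD *Mof*+/- than in SD *Mof*+/+. The calls were 2, both lower, against 5.24% of all genes and 1.91% called lower, and 4 by DESeq2. They were *Kdr*, the endothelial receptor for VEGF (-2.24, SE 0.41, adjusted p = 0.0319), and *Scarb1*, a lipoprotein receptor (-1.41, SE 0.32, adjusted p = 0.0454). Between the diets in *Mof*+/+, 12 were lower and 4 of these were called, against 9.75% of all genes and 3.73% called lower, and 7 by DESeq2. Those called by edgeR were *Irs1*, an adaptor of insulin signalling (-2.54, adjusted p = 0.0132), *Kdr* (3.74-fold lower, adjusted p = 0.0372), the insulin receptor *Insr* (-1.01, adjusted p = 0.0428) and the glucose transporter *Slc2a4* (-1.19, adjusted p = 0.0348). *Kdr* is also in the endothelial list. The median of the list was -0.65 between the genotypes on SD and -0.82 between the diets in *Mof*+/+, against -0.07 and -0.04 over all genes. In the other 3 fits 0 of 14 were called, with 2 at an unadjusted p under 0.05 for genotype on HFD, 0 for diet in *Mof*+/- and 4 for the interaction, and by DESeq2 0, 0 and 1.

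*Nos3*, the endothelial nitric oxide synthase that caveolin-1 binds, had 129.3, 74.7 and 73.2 CPM in SD *Mof*+/+ and 34.6, 40.1 and 33.2 CPM in SD *Mof*+/-, without overlap (2.01-fold lower, edgeR adjusted p = 0.0749). On HFD it had 41.8 and 28.0 CPM in *Mof*+/+ and 51.7 and 84.4 CPM in *Mof*+/- (1.28, adjusted p = 0.304). The order of the genotypes in *Nos3* was opposite on the 2 diets, with an interaction of 2.19 (SE 0.53, unadjusted p = 0.00153, edgeR adjusted p = 0.156). The endothelial list moved with it, with 13 of 13 genes above 0 in the interaction (median 1.80, 0 called by edgeR, 9 at an unadjusted p under 0.05 and 6 by DESeq2) and 8 of 13 higher in *Mof*+/- on HFD, so that the opposition was not particular to *Nos3*. *Cav1* had no such opposition, with an interaction of 0.06 (SE 0.61). Since *Xist* was found in the SD *Mof*+/- libraries alone, none of these interactions can be told apart from an effect of sex. The flotillins, which form membrane domains apart from caveolae, were not called in any comparison by edgeR or DESeq2, with log2 fold changes of 0.59 for *Flot1* and 0.06 for *Flot2* between the genotypes on SD (adjusted p = 0.203 and 0.908) and 0.68 and -0.26 between the diets in *Mof*+/+ (adjusted p = 0.127 and 0.438).

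The muscle counterparts *Cav3* and *Cavin4* were nearly absent apart from the library with the muscle genes. *Cav3* had 38 counts in HFD *Mof*+/- replicate 1 (36.4 CPM, exact 95% interval 25.75 to 49.94), 7 counts in SD *Mof*+/- replicate 3 (1.04 CPM), 4 counts in HFD *Mof*+/+ replicate 1 (0.258 CPM) and 0 in the other 7, where 3 counts would be 0.175 to 0.542 CPM. *Cavin4* had 24 counts in HFD *Mof*+/- replicate 1 (23.0 CPM, interval 14.72 to 34.19), 11 counts in replicate 2 (1.99 CPM) and at most 1.03 CPM in the other 8 libraries. These intervals and floors hold the error of counting alone. In the same library of replicate 1, *Cav1* (762.2 CPM) and *Cavin1* (1139 CPM) remained far above their muscle counterparts.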

How the data were processed

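mRNA-seq libraries of mouse visceral WAT were made with a TruSeq v2 kit. The authors aligned reads with STAR to GRCm38 and deposited raw featureCounts (Subread 1.5.0-p1) counts per gene, without normalization. The annotation release is not given in the sources used here. Groups were taken from the sample labels. CPM were computed here as the count of a gene scaled to 1e6 counts on genes; the totals, from 1044355 to 17171947 per library, set the precision. Exonic lengths, coordinates and overlaps were taken from GENCODE M21 (GRCm38), and start-site windows from RefSeq (GRCm38.p6).

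Groups were compared pairwise in R 4.3.3 with edgeR 4.0.16 (quasi-likelihood test, TMM, filterByExpr), with Benjamini-Hochberg adjustment over all genes tested and a threshold of 0.05. The interaction was fitted to all 10 libraries. Log2 ratios within libraries were compared by exact permutation tests with scipy 1.17.1. Profiles used log2 CPM with a prior count of 1. Intervals are exact Clopper-Pearson at 95%, and the floor is 3 counts. The steps were tested on simulated counts. Replicates differed by more than sampling noise, so each library was counted once.

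The alternatives were DESeq2 1.42.0, its size factors, no filter, a minimum of 10 counts per library, a block for replicate number, all 10 libraries in a single fit, transcript length, TMM without muscle and mitochondrial genes, the grouping by table headings, leaving out each library and, for ratios, 1 added to each count. A correction for length and GC content, and the adipocyte sum without *Cfd*, were chosen once values had been examined.

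The members and gene lists were chosen with earlier results of these data known. The text names all members, the accessory, resident and flotillin genes past the threshold, *Cav3*, *Cavin4*, *Nos3*, *Insr*, *Pacsin2*, *Flot1* and *Flot2* whatever their values, the 3 genes nearest to each member, and *Kat8*. Lists of markers covered adipocytes, endothelium, smooth muscle and pericytes, mesothelium, fibroblasts, macrophages and skeletal muscle.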

Additional observations from a re-analysis of the deposited data

How the results depend on the processing

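The depth of the libraries labelled HFD *Mof*+/- (1044355 and 5531786 counts) and the 2 libraries per HFD group limit the HFD comparisons. Of the 468 alternative log2 fold changes of members, 393 kept their direction and side of the threshold, and the 0 calls between the genotypes on HFD remained at 0 members under all alternatives tried. The cause of the changes below was not tested.

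The 2 calls between the genotypes on SD became 1 with size factors of DESeq2, 1 with the correction for transcript length, and 0 with all 10 libraries in a single fit and with the grouping by headings. The 1 call between the diets in *Mof*+/+ became 2 with DESeq2 and 0 with all 10 libraries and with the grouping by headings. Deviations from the group means were nearly uncorrelated between same-numbered libraries (correlations from -0.043 to 0.032). With so few libraries per group, this cannot decide whether the numbers pair them. With the replicate number as a block, the 2 calls became 0 and the 1 call became 0, *Cav2* on SD turned to 0.0121 and *Cavin3* between the genotypes on HFD to -0.018. When libraries were left out in turn, the calls ranged from 0 to 2 between the genotypes on SD, from 0 to 1 between the diets in *Mof*+/+, and from 0 to 2 between the diets in *Mof*+/- and in the interaction, where 2 was reached without HFD *Mof*+/- replicate 2, with the spread taken from the other groups. Over all genes, the 727 calls between the genotypes on SD ranged from 0 by headings to 2209 by DESeq2, and the 1457 between the diets in *Mof*+/+ from 0 to 2982. The 0 calls between the genotypes on HFD and between the diets in *Mof*+/- rose to 209 and 399 by DESeq2 and to 3456 and 3903 without HFD *Mof*+/- replicate 2, and the 14 of the interaction ranged from 0 by headings to 3163 without that library.

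Directions turned in 49 of the 468 alternative log2 fold changes of members. Among them were values near 0 that were not called. With the grouping by headings, the called values turned as well. Grouped by headings, the genotype difference on SD was -0.23 for *Cavin1*, -0.0697 for *Cavin2* and -0.18 for *Cavin3*. The diet difference by headings was -0.16 for *Cavin1* and -0.0602 for *Cavin3* in *Mof*+/+, and 0.15 and 0.20 in *Mof*+/-. The interaction by headings was -0.11 for *Cav1*, 0.0887 for *Cav2*, 0.29 for *Cavin1*, 0.24 for *Cavin2* and 0.24 for *Cavin3*. Log2 ratios by headings differed on SD by -0.34 for *Cav2* to *Cav1*, -0.0450 for *Cavin1* to *Cav1* and -0.35 for *Ehd2* to *Cav1*. With the length correction, values on SD were 0.0629 for *Cav1*, 0.23 for *Cav2* and 0.41 for *Ehd2*, and on HFD 0.61 for *Cav1* and 0.53 for *Cav2*. With length and GC content, they were 0.17 for *Cav2* and 0.48 for *Ehd2* on SD, 0.69 for *Cav1* and 0.61 for *Cav2* on HFD, and 0.078 for *Cav2* and 0.0409 for *Cavin2* in the interaction.

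With libraries left out in turn, the genotype difference on SD ranged from -0.38 to 0.0226 for *Cav1*, from -0.22 to 0.22 for *Cav2* and from -0.39 to 0.0244 for *Ehd2*. On HFD it ranged from -0.65 to 0.29 for *Cav1*, -0.66 to 0.17 for *Cav2*, -0.45 to 0.52 for *Cavin1*, -0.10 to 0.48 for *Cavin2*, -0.92 to 0.72 for *Cavin3* and -0.52 to 0.70 for *Ehd2*. Diet differences ranged from -0.48 to 0.0047 for *Cavin2* in *Mof*+/+, and from -1.40 to 0.24 for *Cavin3* and -1.07 to 0.15 for *Ehd2* in *Mof*+/-. Interactions ranged from -0.46 to 0.47 for *Cav1*, -0.64 to 0.18 for *Cav2* and -0.34 to 0.87 for *Ehd2*. Log2 ratio differences ranged from -0.0492 to 0.42 for *Cav2* to *Cav1* and -0.18 to 0.21 for *Ehd2* to *Cav1* on SD, and from -0.18 to 0.0262 for *Cavin3* to *Cavin1* between the diets in *Mof*+/+.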
